A study of Homo sapiens with 16 samples.

Results

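The topoisomerases and the genes that handle anthracyclines were followed here as a set of 10 genes taken by symbol: TOP1, TOP2A, TOP2B, CBR1, CBR3, AKR1B1, AKR1C2, AKR1C3, ABCB1 and ABCC1. All 10 were among the 34691 names of the expression table, and 9 of them could be tested, since ABCB1 was detected on 0 arrays. RNA came from MDA-MB-231, an established human breast cancer cell line without oestrogen and progesterone receptors. Cells were grown for 48 h in DMSO vehicle, in entinostat at 2.5 µM, in all-trans retinoic acid (ATRA) at 1 µM, in doxorubicin at 0.2 µM, in each pair of these drugs, or in all 3 drugs together. Each of the 8 groups had 2 Illumina BeadChip arrays, 16 in all. The labels number these replicates but do not state that they came from separate cultures, so a p-value here reflects how far these arrays scatter, a spread that may be technical alone. All groups share a single cell line and a single time.

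Type II topoisomerases cut both strands of DNA, pass another duplex through the gap and reseal it. Doxorubicin traps them on the cut DNA. TOP2A is the form made by dividing cells, TOP2B is also made by cells that do not divide, and TOP1, which cuts a single strand, is the target of camptothecins. Inside the cell, carbonyl reductases (CBR1 and CBR3) and aldo-keto reductases (the AKR genes) can reduce the side-chain ketone of doxorubicin to the alcohol doxorubicinol, and ATP-driven pumps such as P-glycoprotein (ABCB1) and MRP1 (ABCC1) carry anthracyclines out. Entinostat inhibits class I histone deacetylases, and ATRA activates retinoic acid receptors.

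The promoters of 2 pairs of related members are printed because these pairs moved in the same direction with a drug: TOP2A and TOP2B with both entinostat and doxorubicin, and AKR1C2 and AKR1C3, which lie next to each other on chromosome 10, with entinostat. The change of AKR1C2 rests on arrays on which it was mostly not detected, and those of TOP2B lay near the threshold, as given below. Each line gives the 250 bases before the transcription start farthest upstream in RefSeq (GRCh38.p14), 5′ to 3′ on the gene's own strand. Capitals mark the CCAAT box (CCAAT, or ATTGG on the other strand) and, in the topoisomerase genes, the letters of the cell cycle homology element TTTGAA (on the other strand, TTCAAA).
TOP2A (chr17:40417897-40418146, minus strand): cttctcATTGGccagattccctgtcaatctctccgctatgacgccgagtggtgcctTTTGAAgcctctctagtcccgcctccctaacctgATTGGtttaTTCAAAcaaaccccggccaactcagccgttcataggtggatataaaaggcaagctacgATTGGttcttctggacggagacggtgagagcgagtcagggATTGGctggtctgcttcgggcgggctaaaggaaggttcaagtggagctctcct
TOP2B (chr3:25664908-25665157, minus strand): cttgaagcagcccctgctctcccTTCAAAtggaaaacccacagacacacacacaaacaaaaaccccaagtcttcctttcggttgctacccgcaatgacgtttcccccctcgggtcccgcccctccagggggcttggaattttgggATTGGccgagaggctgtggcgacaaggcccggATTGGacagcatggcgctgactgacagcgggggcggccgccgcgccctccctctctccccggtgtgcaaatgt
AKR1C2 (chr10:5003858-5004107, minus strand): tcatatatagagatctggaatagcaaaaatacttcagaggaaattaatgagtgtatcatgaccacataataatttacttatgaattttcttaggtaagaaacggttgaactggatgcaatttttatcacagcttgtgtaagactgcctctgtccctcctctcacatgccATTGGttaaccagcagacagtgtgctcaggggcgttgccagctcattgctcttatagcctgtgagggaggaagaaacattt
AKR1C3 (chr10:5048531-5048780, plus strand): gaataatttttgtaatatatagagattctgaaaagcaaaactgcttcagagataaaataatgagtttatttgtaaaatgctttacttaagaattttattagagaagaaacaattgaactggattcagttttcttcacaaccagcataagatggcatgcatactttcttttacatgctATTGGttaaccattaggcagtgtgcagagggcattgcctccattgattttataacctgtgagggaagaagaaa
TOP2A held 4 copies of the CCAAT box, all as ATTGG, at -244, -160, -93 and -53 relative to the start, and TOP2B held 2. AKR1C2 and AKR1C3 held 1 each, at -81 and -73. All 35116 RefSeq promoters were searched over the same 250 bases before the start. Of these, 32.0% held at least 1 CCAAT box on either strand and 0.874% held 4 or more. The letters TTTGAA were found 2 times in TOP2A and 1 time in TOP2B, and in 13.3% of all promoters. Over an alignment of the printed windows, AKR1C2 and AKR1C3 were identical at 70.6% of positions and TOP2A and TOP2B at 46.0%. The core of the antioxidant response element, TGACNNNGC on either strand, occurred in TOP1 and CBR1 and in 10.9% of all promoters. Promoters were matched for 8 of the 10 members, and TTTGAA and the antioxidant core were absent from the AKR1B1, AKR1C2, AKR1C3 and ABCB1 windows. A match here is a description of letters, not a bound site.

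Between 11402 and 12748 genes were detected per array (36.4% to 40.7%), at a detection p-value below 0.05. The markers VIM, CD44, AXL and CAV1 of this line were detected on all 16 arrays, but SPARC, also a marker of it, on 3, and ESR1 and PGR on 0, CDH1 and ERBB2 on 1. EPCAM, listed as low in such a line, was detected on 16, at 131 to 269.7. As checks of the drug labels, CDKN1A, the cell cycle inhibitor induced by DNA damage, rose with doxorubicin by 1.39 (SE 0.11) on the log2 scale, and DHRS3, a retinoid-induced reductase, rose with ATRA by 1.98 (SE 0.16), with limma adjusted p-values of 2.49e-07 and 8.19e-05. CDKN1A also rose with entinostat, by 1.23 on average, so its rise was not particular to doxorubicin. CDKN1A was detected on 4 arrays in spite of signals of 357.1 to 3433.7, so the deposited detection p-value was not a reliable guide to level. TGM2, a retinoid target, rose with ATRA by 0.53 (adjusted p = 0.0369), and MDM2, a p53 target, was detected on 3 arrays. H1F0, a linker histone induced by deacetylase inhibitors in other cells, was higher by 0.57 with entinostat at adjusted p = 0.0582. Of the 10 markers fixed for other cell types, PTPRC, CD3E and DCN were detected on 0 arrays. The summed signal of the 10 was 73.6 to 216.8 without entinostat or doxorubicin, 481.6 to 754.8 with entinostat alone or with ATRA, 431.1 to 736.7 with doxorubicin alone or with ATRA, and 1456.4 to 1785.3 with both drugs. CD14 ranged from 44.2 to 796.2 and ACTA2 from 19.4 to 914.1. The part of this shift in the results on the members was not tested.

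Values are background-subtracted signals, and changes are log2 differences of normalised signals with standard errors from a limma fit of all 16 arrays. Called means a p-value below 0.05 after Benjamini-Hochberg adjustment over 17126 genes. An average effect compares the 8 arrays with a drug and the 8 without it. In the average effect of doxorubicin, 8 of the 9 tested members were called, 3 higher and 5 lower, where 41.1% of all tested genes were called, 19.8% higher and 21.3% lower. Without ABCC1, which passed the detection filter only through arrays without doxorubicin, it was 7 of 8, with 4 lower. In the average effect of entinostat, 7 of 9 were called, 3 higher and 4 lower, where 23.2% of all genes were called, 11.0% higher and 12.3% lower. The median change of the tested members was -0.20 for doxorubicin and 0.01 for entinostat, where the medians over all tested genes were 0.00 and -0.02. For ATRA 0 of 9 were called, with 0.111% of all genes. On the log2 scale, the 8 arrays with doxorubicin and the 8 without did not overlap for 3 of 9 members, TOP2A, CBR3 and AKR1B1, and for 11.4% of all tested genes. For entinostat the same count was 0 of 9, with 2.38% of all genes.

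**Figure D1:**
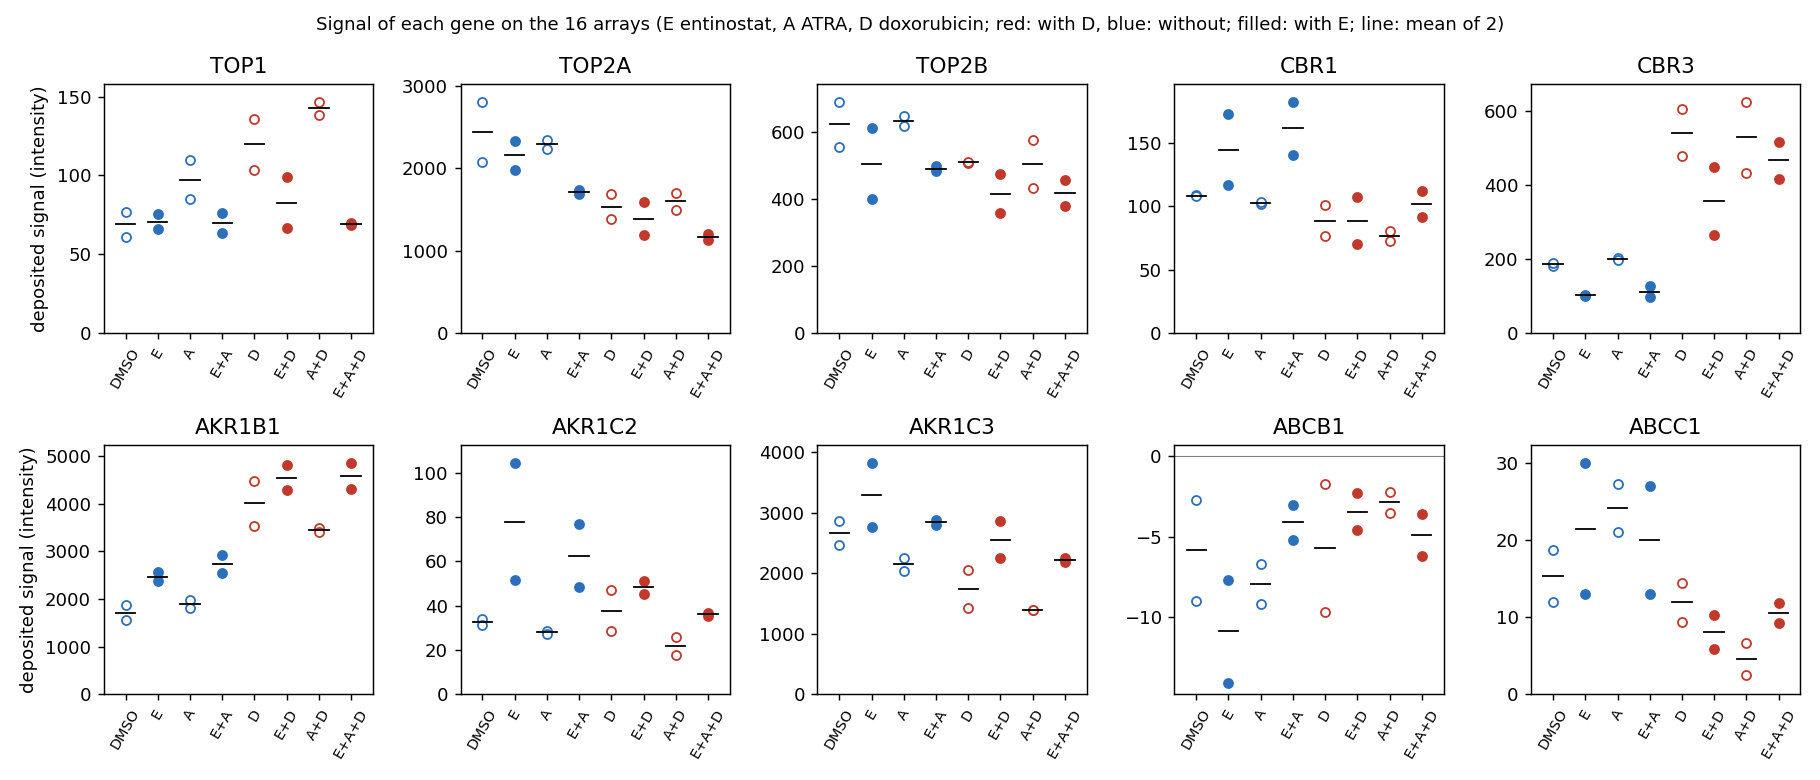
Deposited background-subtracted signal (y, linear) of the 10 members in the 8 groups (x), 1 point for each array and a line for the mean of 2. Red marks doxorubicin and filled points mark entinostat. CBR3 and AKR1B1 sit higher on every array with doxorubicin, and TOP2A has its lowest mean in the 3-drug group (1202 and 1132.2), which overlaps entinostat with doxorubicin (1585.7 and 1185).

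TOP2A, the topoisomerase II of dividing cells, fell with doxorubicin. Its signal was 2803.3 and 2076 in DMSO, 2327.2 and 1984 in entinostat, 2341.1 and 2237.7 in ATRA, and 1687.8 and 1732.4 in entinostat with ATRA. With doxorubicin it was 1689 and 1378.6, with entinostat and doxorubicin 1585.7 and 1185, with ATRA and doxorubicin 1695.9 and 1495.1, and with all 3 drugs 1202 and 1132.2. The groups with doxorubicin were the 4 lowest, although the highest of their arrays lay at the level of the entinostat with ATRA arrays: on the deposited scale 1695.9 and 1687.8 cross, and on the normalised scale they are nearly equal. The average change with doxorubicin was -0.56 (SE 0.08, adjusted p = 7.71e-05), which is a 1.48-fold lower signal. Against DMSO it fell by 0.63 (adjusted p = 0.0236) in doxorubicin, by 0.76 (0.00355) in entinostat with doxorubicin, by 0.56 (0.037) in ATRA with doxorubicin and by 0.98 (0.000589) in the 3-drug group. Without DMSO replicate 1, the brightest TOP2A array, the first 3 of these were not called (adjusted p = 0.236, 0.0589 and 0.318), and neither were they without replicate 2 of the treated group (0.188, 0.0523 and 0.215) or, for ATRA with doxorubicin, replicate 1 (0.0731). The average change with entinostat was -0.27 (SE 0.08, adjusted p = 0.0304), and it was not called in 10 of 22 alternative settings, 9 of them the loss of 1 array (adjusted p up to 0.0793). In bulk RNA, fewer cells of a kind and less RNA per cell cannot be told apart.

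Beside TOP2A, genes of the G2 and M phases of the cell cycle were also lower with doxorubicin. Of 14 such genes tested, 10 fell and 2 rose in the average effect of doxorubicin, where 21.3% of all tested genes fell and 19.8% rose. The median change of the 14 was -0.49. The largest decreases were in CCNA2 (cyclin A2, -1.16, SE 0.10), CCNB1 (cyclin B1, -1.05, SE 0.16) and PLK1 (a mitotic kinase, -0.91, SE 0.10), with adjusted p-values of 8.23e-07, 9.84e-05 and 5.33e-06. NUSAP1 and CDC2, chosen here after their values were seen because they were the 2 that rose, changed by 0.77 (SE 0.11, adjusted p = 6.99e-05) and 0.24 (SE 0.07, adjusted p = 0.0122). In the average effect of entinostat, 2 of the 14 fell, CCNA2 (-0.54, SE 0.10, adjusted p = 0.00197) and AURKB (-0.35, SE 0.10, adjusted p = 0.0202), and 0 rose, with a median of -0.20. Over all tested genes 12.3% fell and 11.0% rose with entinostat. In the average effect of ATRA 0 of 14 were called, with 0.111% of all tested genes. The part of the cell cycle genes in the TOP2A result was not tested.

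**Figure D2:**
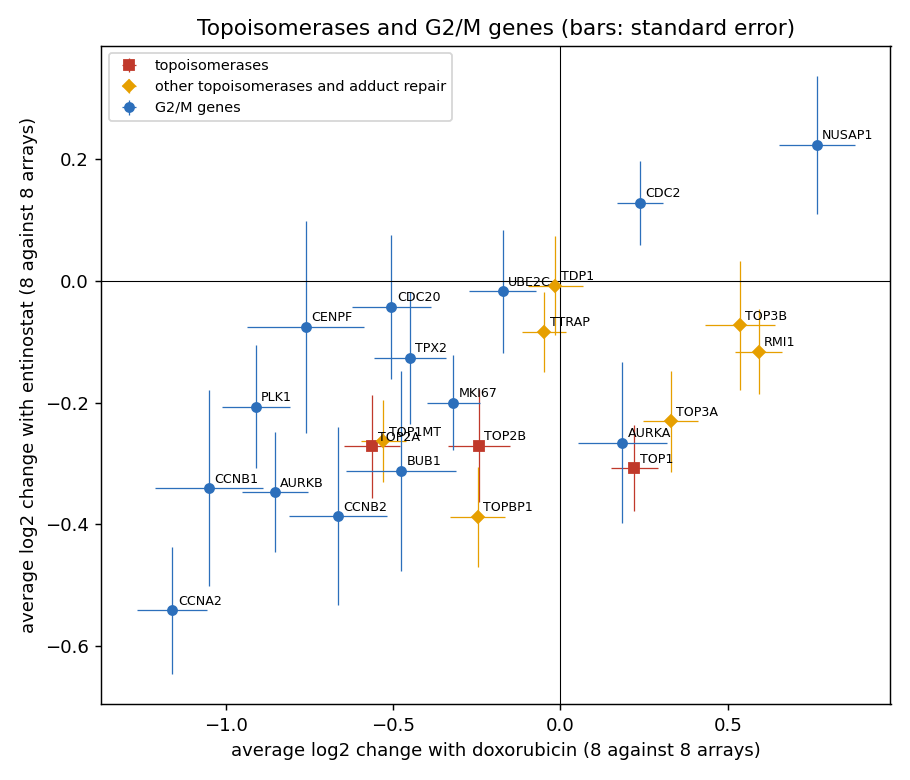
Average log2 change with doxorubicin (x) against that with entinostat (y), 8 arrays against 8 on each axis, with standard errors as bars, for the topoisomerases, other topoisomerase genes and G2/M genes. TOP2A (-0.56, -0.27) lies among the G2/M genes at the lower left, and TOP1 (0.22, -0.31) lies at the lower right.

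TOP2B, the type II enzyme that resting cells also make, was lower with doxorubicin and with entinostat, near the threshold in both. Its signal was 688.8 and 556 in DMSO, 612.2 and 398 in entinostat, 648.1 and 617.2 in ATRA and 482.4 and 497.5 in entinostat with ATRA. It was 508.2 and 509.8 in doxorubicin, 473.9 and 357.5 in entinostat with doxorubicin, 575.4 and 432.6 in ATRA with doxorubicin, and 457 and 378.2 with all 3 drugs. The ranges with and without doxorubicin overlapped, as did those with and without entinostat. The average changes were -0.24 (SE 0.09, adjusted p = 0.0473) with doxorubicin and -0.27 (SE 0.09, adjusted p = 0.0477) with entinostat. Each of these calls was lost in 14 of 22 alternative settings, 11 of them the loss of 1 array (adjusted p up to 0.125 and 0.119). Against DMSO, TOP2B was called in 0 of 7 treatments, the nearest being entinostat with doxorubicin at -0.50 (adjusted p = 0.0578). It was called without entinostat+doxorubicin replicate 1, at -0.67 (adjusted p = 0.0429).

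TOP1, the single-strand enzyme, was called higher than DMSO in doxorubicin alone and in ATRA with doxorubicin. Its signal was 77 and 60.9 in DMSO, 75.6 and 65.8 in entinostat, 109.5 and 85.3 in ATRA and 75.9 and 63.3 in entinostat with ATRA. It was 103.6 and 136 in doxorubicin, 138.5 and 146.6 in ATRA with doxorubicin, 98.9 and 66.4 in entinostat with doxorubicin, and 69.5 and 68.4 with all 3 drugs. The 4 arrays with doxorubicin but no entinostat reached 103.6 to 146.6, overlapping only ATRA replicate 1 at 109.5, and the arrays with both drugs lay within the range of the arrays without doxorubicin. TOP1 was detected on 0 of 2 arrays in DMSO and 0 of 2 in doxorubicin, so the size of that difference is not relied on. The limma fit called TOP1 higher there (adjusted p = 0.0459). In ATRA with doxorubicin, where both arrays were detected, TOP1 was higher than in DMSO by 0.62 (95% interval 0.32 to 0.92, limma adjusted p = 0.009). With normexp from the detection p-values TOP1 was higher by only 0.13, so no least fold is given. Its average change was 0.22 (SE 0.07, adjusted p = 0.02) with doxorubicin and -0.31 (SE 0.07, adjusted p = 0.00576) with entinostat, with 4 of 8 arrays detected on either side of both comparisons. When normexp used the detection p-values these averages shrank to 0.05 and -0.06. The departure from additivity, which asks whether entinostat and doxorubicin together differ from the sum of their separate log2 changes, was -0.36 (95% interval -0.66 to -0.06) and was not called (adjusted p = 0.247). The call against DMSO in doxorubicin alone was lost without either DMSO array or without doxorubicin replicate 2 (adjusted p = 0.0987, 0.227 and 0.311). That in ATRA with doxorubicin was lost without DMSO replicate 2 or its own replicate 2 (0.0759 and 0.0697), and the average with doxorubicin without ATRA replicate 2, doxorubicin replicate 2 or entinostat+doxorubicin replicate 1 (0.0543, 0.0509 and 0.0531).

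CBR3, a carbonyl reductase, rose with doxorubicin and fell with entinostat in the average effects. Its signal was 181.7 and 188.7 in DMSO, 203.4 and 195.9 in ATRA, 100.7 and 102.3 in entinostat and 96.5 and 126.1 in entinostat with ATRA. It was 477.9 and 604.4 in doxorubicin, 433 and 624.2 in ATRA with doxorubicin, 265.9 and 447.7 in entinostat with doxorubicin, and 416.8 and 516.2 with all 3 drugs. Every array with doxorubicin lay above every array without it, and the 4 arrays with entinostat but no doxorubicin lay below the other 12. The average change with doxorubicin was 1.32 (SE 0.10, adjusted p = 2.18e-07), a 2.49-fold rise, and with entinostat it was -0.47 (SE 0.10, adjusted p = 0.00444). When normexp used the detection p-values, the first was 0.70, still called, and the second -0.23, not called (adjusted p = 0.111). Against DMSO it rose by 1.26 (adjusted p = 0.00141) in doxorubicin, 1.21 (0.00159) in ATRA with doxorubicin, 1.07 (0.00131) in the 3-drug group and 0.71 (0.0177) in entinostat with doxorubicin. With that other normexp these were 0.80, 0.75, 0.61 and 0.36, and the last was not called (adjusted p = 0.183). Entinostat alone gave -0.59 and missed the threshold (adjusted p = 0.21). The order of the group means fell from doxorubicin through ATRA with doxorubicin, the 3-drug group, entinostat with doxorubicin, ATRA, DMSO, entinostat with ATRA and entinostat. Within the upper 4 groups the arrays overlapped, with 1 exception. Both doxorubicin arrays (477.9 and 604.4) lay above both arrays of entinostat with doxorubicin (265.9 and 447.7), a difference that was not tested. Entinostat and entinostat with ATRA overlapped, and ATRA lay 0.08 above DMSO, which was not called. The call in entinostat with doxorubicin was also lost without DMSO replicate 1, DMSO replicate 2 or its own replicate 2 (adjusted p = 0.085, 0.0692 and 0.226).

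AKR1B1, aldose reductase, rose with both entinostat and doxorubicin in the average effects. Its signal was 1549 and 1868.5 in DMSO, 1972.1 and 1813 in ATRA, 2554.7 and 2379.9 in entinostat and 2927.6 and 2541.9 in entinostat with ATRA. It was 4482.7 and 3529.2 in doxorubicin, 3477.7 and 3411 in ATRA with doxorubicin, 4803.7 and 4278.4 in entinostat with doxorubicin and 4305.4 and 4840.9 with all 3 drugs. The DMSO and ATRA arrays were lowest, the 4 with entinostat but no doxorubicin came next, and all 8 with doxorubicin were above those. The average change was 0.91 (SE 0.07, adjusted p = 3.14e-07) with doxorubicin, a 1.88-fold rise, and 0.40 (SE 0.07, adjusted p = 0.0013) with entinostat. Against DMSO it rose by 1.20 (adjusted p = 0.000251) in doxorubicin, 1.38 (1.65e-05) in entinostat with doxorubicin, 0.99 (0.000699) in ATRA with doxorubicin and 1.39 (1.72e-05) in the 3-drug group. It also rose by 0.67 (adjusted p = 0.0283) in entinostat with ATRA, a call lost without DMSO replicate 1, DMSO replicate 2 or entinostat+ATRA replicate 1 (0.241, 0.0651 and 0.263). Entinostat alone gave 0.52 against DMSO and missed the threshold (adjusted p = 0.112). The 3-drug group and entinostat with doxorubicin, the 2 highest, overlapped.

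AKR1C3, a reductase of steroids, prostaglandins and anthracyclines, fell with doxorubicin and rose with entinostat in the average effects. Its signal was 2855 and 2463.2 in DMSO, 3810.6 and 2762.8 in entinostat, 2255.3 and 2037.9 in ATRA and 2884 and 2796.7 in entinostat with ATRA. It was 2046.2 and 1418.1 in doxorubicin, 1387.7 and 1392.8 in ATRA with doxorubicin, 2857.6 and 2249.5 in entinostat with doxorubicin and 2251.1 and 2179.2 with all 3 drugs. The 3 lowest arrays had doxorubicin and no entinostat, and the other array of that kind, at 2046.2, lay just above ATRA replicate 2. The ranges with and without doxorubicin overlapped. The average changes were -0.47 (SE 0.09, adjusted p = 0.000683) with doxorubicin and 0.47 (SE 0.09, adjusted p = 0.00197) with entinostat. Entinostat alone gave 0.29 against DMSO and was not called (adjusted p = 0.582). Against DMSO, AKR1C3 fell by 0.60 (adjusted p = 0.0433) in doxorubicin and by 0.88 (0.00512) in ATRA with doxorubicin. The first call was lost without doxorubicin replicate 2 or either DMSO array (0.385, 0.242 and 0.0861), and the second without DMSO replicate 1 (0.0606). The average change with ATRA, -0.24, had a 95% interval of -0.43 to -0.04 before adjustment and was not called after it (adjusted p = 1).

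AKR1C2, the neighbour of AKR1C3, was near the detection limit, with signals of 17.8 to 104.2 and detection on 1 of 8 arrays with entinostat and 3 of 8 without. Its signal was 104.2 and 51.8 in entinostat, 76.7 and 48.3 in entinostat with ATRA and 25.8 and 17.8 in ATRA with doxorubicin, and entinostat+doxorubicin replicate 1 reached 51.2. Its average change with entinostat was 0.32 (SE 0.08, adjusted p = 0.0121), and with doxorubicin -0.17 (adjusted p = 0.115). The first rests on arrays on which AKR1C2 was mostly not detected, although the detection p-value was not a reliable guide to level. It shrank to 0.04 when normexp used the detection p-values, where it was not called (0.0508). The change with doxorubicin was -0.24 without entinostat replicate 2. The AKR1C genes are close copies of each other, the sequences of the array probes are not used here, and signal from one gene on the other's probe cannot be told apart from its own.

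CBR1, which neighbours CBR3 on chromosome 21, moved the other way with doxorubicin. Its signal was 108.7 and 108.2 in DMSO, 116.9 and 172.7 in entinostat, 101.8 and 103.7 in ATRA and 140.7 and 182.3 in entinostat with ATRA. It was 76.4 and 100.8 in doxorubicin, 80.4 and 72.5 in ATRA with doxorubicin, 107 and 70 in entinostat with doxorubicin and 91.5 and 111.9 with all 3 drugs. Values were highest with entinostat and no doxorubicin and lowest with doxorubicin, with overlap. CBR1 fell by 0.33 (SE 0.08, adjusted p = 0.00425) in the average effect of doxorubicin, where CBR3 rose, and by 0.07 when normexp used the detection p-values. Its change with entinostat, 0.21, was not called (adjusted p = 0.0824), but was without entinostat replicate 1 or entinostat+doxorubicin replicate 2 (0.0383 and 0.0431). Against DMSO, CBR1 was called in 0 of 7 treatments.

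**Figure D3:**
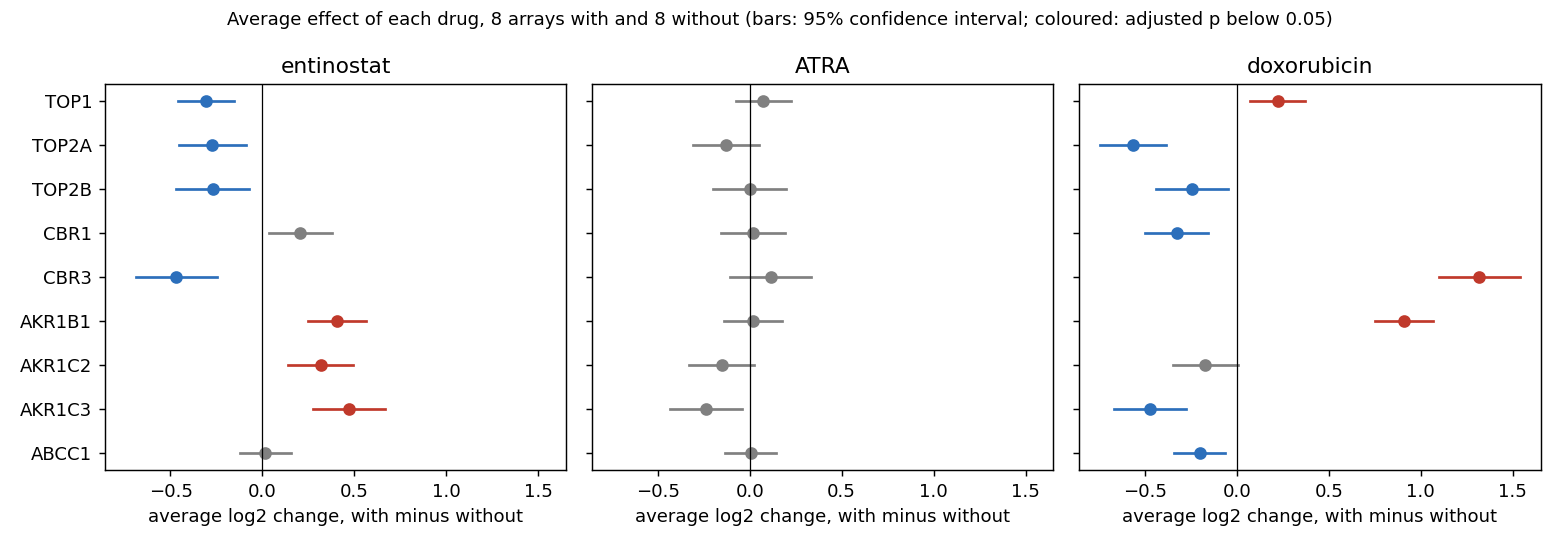
Average log2 change of each tested member with entinostat, ATRA and doxorubicin, with 95% intervals from limma as bars and colour where the adjusted p is below 0.05. CBR3 at 1.32 and AKR1B1 at 0.91 lie highest for doxorubicin, TOP2A at -0.56 lowest, and the ATRA values lie between -0.24 and 0.11.

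Of the pumps, ABCB1 (P-glycoprotein) gave signals of -14.1 to -1.7 and detection p-values of 0.59966 to 0.99223, so it was at background in all 8 groups and no change could be measured. ABCC1 (MRP1) was close to background. Its signals were 11.9 to 29.9 on the 8 arrays without doxorubicin, of which 7 were detected, and 2.5 to 14.4 on the 8 with it, of which 0 were detected. The ranges overlapped. The average change with doxorubicin was -0.20 (SE 0.06, limma adjusted p = 0.0206). As 0 of the 8 doxorubicin arrays were detected, no least fold is given. ABCC1 passed the filter only through the arrays without doxorubicin, so this is a description and no support for a change, and it shrank to -0.02 when normexp used the detection p-values. The call was lost without entinostat replicate 1 or entinostat+ATRA replicate 2 (adjusted p = 0.0584 and 0.057). With entinostat it was 0.01 (95% interval -0.12 to 0.15, not called).

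Read by treatment, the members were called in these numbers against DMSO. Entinostat alone gave 0 of 9 (3 at an unadjusted p below 0.05), where 1.58% of all tested genes were called, and ATRA alone 0 of 9 (0 unadjusted), where 0.0234% were called. Doxorubicin gave 5 of 9, with TOP1, CBR3 and AKR1B1 higher and TOP2A and AKR1C3 lower, where 13.6% were called. Entinostat with ATRA gave 1 of 9 (2.46% of all), entinostat with doxorubicin 3 (28.0%), ATRA with doxorubicin 5 (15%) and the 3-drug group 3 (27.8%). TOP2A, CBR3 and AKR1B1 were called in all 4 groups with doxorubicin. These comparisons share the DMSO arrays. Between the 3-drug group and doxorubicin alone 0 of 9 members were called (1 unadjusted, TOP1 at -0.47, adjusted p = 0.0689), where 5.66% of all genes were called. The intervals of that difference were -0.63 to 0.24 for CBR3, -0.13 to 0.50 for AKR1B1 and -0.71 to 0.01 for TOP2A. For the departure from additivity 0 of 9 were called (1 unadjusted, TOP1), where 1.86% of all genes were called.

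**Figure D4:**
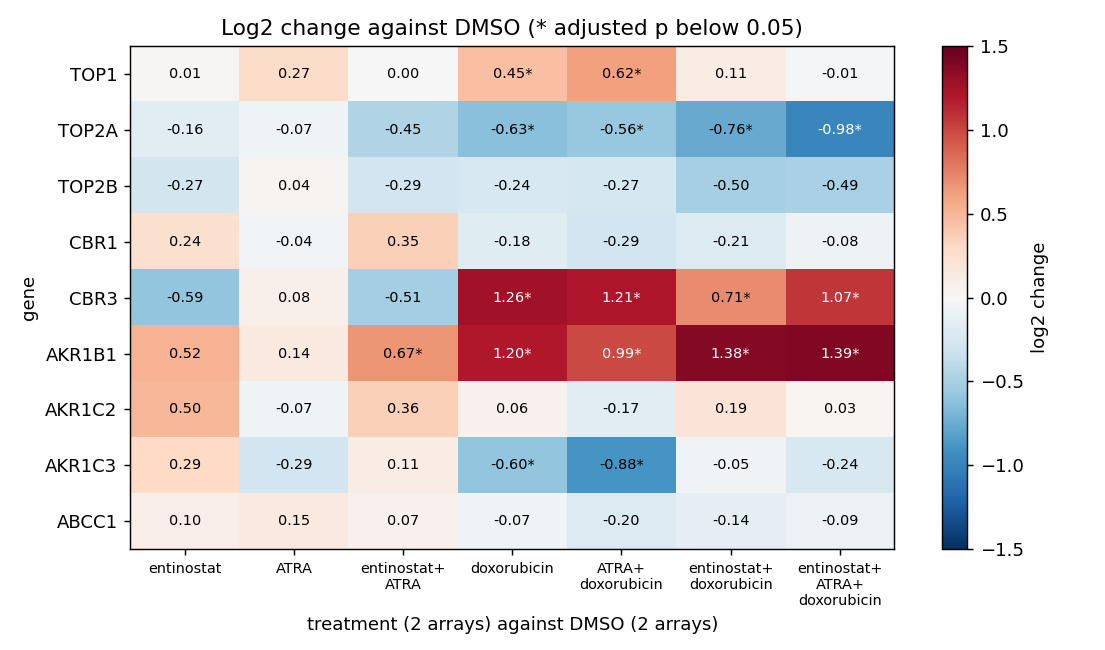
Heat map of the log2 change of each tested member (y) in the 7 treatments against DMSO (x), 2 arrays against 2, with a star where the limma adjusted p is below 0.05. The stars for CBR3, AKR1B1 and TOP2A run through all 4 groups with doxorubicin. TOP1 was detected on 0 arrays of DMSO and of doxorubicin, so the 0.45 printed in that cell is not relied on as a size.

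Other genes of the same pathway were taken from lists. Of 7 other topoisomerases and genes that repair topoisomerase adducts, 3 rose and 2 fell in the average effect of doxorubicin. RMI1, a partner of the topoisomerase III complex, rose by 0.59 (SE 0.07, adjusted p = 9.41e-06), TOP3B by 0.54 (SE 0.11, adjusted p = 0.000792), and the mitochondrial enzyme TOP1MT fell by 0.53 (SE 0.07, adjusted p = 1.8e-05). With entinostat 0 rose and 2 fell, TOPBP1 by 0.39 (SE 0.08, adjusted p = 0.00368) and TOP1MT by 0.26 (SE 0.07, adjusted p = 0.0111). The medians were -0.02 and -0.12. Over all tested genes 41.1% were called with doxorubicin and 23.2% with entinostat.

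Of 17 other reductases and quinone enzymes, 11 were tested. With doxorubicin 3 rose and 1 fell (median 0.16), and with entinostat 6 rose and 0 fell (median 0.34). Over all tested genes 19.8% rose and 21.3% fell with doxorubicin, and 11.0% rose and 12.3% fell with entinostat. POR, the cytochrome P450 reductase that can reduce doxorubicin to a radical, rose with doxorubicin by 1.01 (SE 0.10, adjusted p = 1.67e-06). Its signals were 58.1 and 73.1 in DMSO and 438.8 and 317.6 with all 3 drugs. GSTP1, a glutathione transferase, rose by 0.79 (SE 0.11, adjusted p = 5.89e-05) and AKR7A2 by 0.44 (SE 0.09, adjusted p = 0.00111). AKR1B10, which lies beside AKR1B1 on chromosome 7 and is a close copy of it, rose with entinostat by 0.99 (SE 0.11, adjusted p = 2.07e-05) and fell with doxorubicin by 0.43 (SE 0.11, adjusted p = 0.00469). Its signals were 188.2 and 129.5 in entinostat and 1.3 and 9.3 in doxorubicin. It was detected on 8 of 8 arrays with entinostat but 2 of 8 without, and on 4 of 8 with doxorubicin, so the sizes lean on arrays at background, and they shrank to 0.15 and -0.07 when normexp used the detection p-values. AKR1C4 and AKR1A1 also rose with entinostat, by 0.72 (SE 0.09, adjusted p = 7.09e-05) and 0.47 (SE 0.06, adjusted p = 0.000166).

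Of 13 other efflux and uptake transporters, 7 were tested, and 2 rose and 3 fell with doxorubicin (median -0.07). ABCC5 (MRP5) rose by 1.095 (SE 0.07, adjusted p = 6.19e-08), and ABCC3 by 0.46 (SE 0.10, adjusted p = 0.00148). With entinostat ABCC5 was the 1 called, at 0.54 (SE 0.07, adjusted p = 0.000151), and the median was 0.05. ABCC5 signals were 47.1 and 47.5 in entinostat, against 54.5 and 73.2 in DMSO. They were 374.5 and 356.9 in entinostat with doxorubicin, against 110.7 and 123.7 in doxorubicin. The entinostat average of ABCC5 therefore came mainly from the arrays with doxorubicin. Of 10 targets of NRF2, the regulator of the antioxidant response, 9 were tested. With doxorubicin 4 rose and 2 fell (median 0.15), led by SRXN1 at 0.82 (SE 0.10, adjusted p = 1.49e-05) and PGD at 0.70 (SE 0.10, adjusted p = 5.11e-05). With entinostat 4 rose and 2 fell (median 0.24), with HMOX1 at 0.85 (SE 0.11, adjusted p = 0.000107), SLC7A11 at -0.60 (SE 0.08, adjusted p = 0.000137) and GCLM at -0.47 (SE 0.06, adjusted p = 0.000147). For the transporters and the NRF2 targets alike, the shares called over all tested genes were 41.1% with doxorubicin and 23.2% with entinostat. With ATRA 0 genes of these 4 lists were called, with 0.111% of all tested genes.

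The genes whose 8 group means were most like those of a member, by Pearson correlation and as a description only, were MAP3K11 (0.9974), CENPT (0.996) and MRPS15 (0.9943) for CBR3. For AKR1B1 they were HES1 (0.9952), CCDC130 (0.9951) and MFGE8 (0.9941), and for AKR1C3 they were KDELR3 (0.9809), MCM3APAS (0.9806) and ECHDC2 (0.9761). Only these 3 members had group means spanning over 1 log2 unit. Among the members themselves, TOP2A and AKR1B1 had group means correlated at -0.965 and TOP1 and AKR1C3 at -0.907. All of these points share the same 16 arrays.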

How the data were processed

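The authors deposited intensity values, already background-subtracted, with a detection p-value per gene and array, for 34691 names from -26 to 22098.4, and a second table of log2 values whose minimum is 6 (per the file headers and values). Of tools, limma is listed in the submitters' processing notes, with no version. The genome build, the annotation and how probes were combined are not given in the sources used here. Groups were taken from the treatment label of each sample. The members and lists were chosen with earlier results of these data known.

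The intensities were corrected with normexp (offset 50), quantile normalised and log2 transformed (limma 3.58.1, R 4.3.3). Excluded were 92 spike-ins and 3270 unnamed clusters. Testing needed a detection p-value below 0.05 on 2 or more arrays (17126 genes), and 117 of the 7142 genes whose mean signal exceeded 100 failed this. The fit of group means had 8 residual degrees of freedom. The 12 comparisons were the 7 treatments against DMSO, the 3-drug group against doxorubicin, 3 average effects and 1 departure from additivity. Named list genes are those with the largest changes among those called, up to 3 a list, and 3 genes of the lists are not reported here. The fit was tested on simulated data. Alternatives were normexp from the detection p-values, an offset of 16, the authors' log2 table, no filter or 4 arrays, the replicate block, only the arrays compared, and leaving out each array. The number of arrays limits the precision. Promoters came from RefSeq (GRCh38.p14), aligned with Biopython 1.88.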

Additional observations from a re-analysis of the deposited data

Results flagged for a closer look

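The test of the difference between the entinostat change with and without doxorubicin passed for 3 genes of the pathway, G2/M and NRF2 lists and for 0 of the 9 tested members. It passed for 1.86% of all tested genes. ABCC5 (MRP5) had signals of 54.5 and 73.2 in DMSO, 47.1 and 47.5 in entinostat, 110.7 and 123.7 in doxorubicin, 374.5 and 356.9 in entinostat with doxorubicin, and 329 and 244.8 with all 3 drugs. Its departure from additivity was 1.17 (SE 0.15, limma adjusted p = 0.00124), and over 22 alternatives the adjusted p ranged from 0.000489 to 0.00625 and the departure from 0.44, when normexp used the detection p-values, to 1.36. ABCC5 was detected on 10 of 16 arrays. AURKA, a mitotic kinase, departed by 1.36 (SE 0.27, adjusted p = 0.0183, with 0.00371 to 0.058 over the alternatives). TXNRD1, thioredoxin reductase, departed by -0.89 (SE 0.19, adjusted p = 0.0293, with 0.00413 to 0.0892). Its signals were 2107.8 and 2012 in DMSO, 4514.5 and 2998.9 in entinostat and 1800.8 and 1542.4 in entinostat with doxorubicin. Signals of AURKA were 1967 and 1449 in DMSO, 1320.4 and 902.2 in entinostat and 1089.9 and 1209.6 in doxorubicin. They were 1537.9 and 1544.7 in entinostat with doxorubicin. In entinostat with ATRA the AURKA arrays were far apart, at 417.1 and 883.1, and both enter its departure.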

How the results depend on the processing

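Of 108 member results, 32 were called. All 32 kept their sign under every alternative run, 16 were called under every one, and of the 76 not called 71 stayed so. In the average effect of doxorubicin the calls of CBR3, AKR1B1, TOP2A, AKR1C3 and CBR1 held throughout. The members called in doxorubicin against DMSO fell from 5 to 2 under normexp based on detection p-values, to 2 at offset 16, 3 with no detection filter and 2 with only the arrays compared. In entinostat with ATRA the 1 call became 0 with offset 16 and 0 with only the arrays compared. The average effect of entinostat had 4 in place of 7 under that same normexp. Leaving out 1 array gave 2 to 5 for doxorubicin (2 without DMSO replicate 1 or doxorubicin replicate 2), 0 to 1 for entinostat with ATRA, 1 to 4 for entinostat with doxorubicin, 3 to 4 for ATRA with doxorubicin, 5 to 8 for the average effect of entinostat and 6 to 9 for that of doxorubicin. Same-numbered arrays deviated together in all 28 pairs of groups (correlations of 0.02 to 0.42, median 0.22), and 26 exceeded 0.1. The main fit did not model this shared deviation, and the replicate block was run as an alternative. With the replicate number as a block, TOP2B was also called in entinostat with doxorubicin and in the 3-drug group (adjusted p = 0.015 and 0.0166), 1 member in place of 0 was called between the 3-drug group and doxorubicin (TOP1, adjusted p = 0.0448), and the calls over all genes went from 270 to 546 for entinostat, 4 to 10 for ATRA, 421 to 800 for entinostat with ATRA, 970 to 1583 for the 3-drug group against doxorubicin, 19 to 32 for the average effect of ATRA and 318 to 684 for additivity. Normexp based on detection p-values gave 129 for entinostat, 0 for ATRA, 277 for entinostat with ATRA, 585 for the 3-drug group against doxorubicin and 2 for the average effect of ATRA. With only the arrays compared, doxorubicin had 1030 in place of 2329 and the 3-drug group against doxorubicin 129. For ATRA, offset 16 gave 1, the log2 table of the authors gave 2 and only the arrays compared 10. Leaving out 1 array gave, over all genes, 26 to 180 for entinostat, 0 for ATRA, 917 to 2525 for doxorubicin, 124 to 351 for entinostat with ATRA, 1042 to 1525 for ATRA with doxorubicin (2564 with all arrays), 3155 to 3794 for the 3-drug group (4768), 237 to 1156 for the 3-drug group against doxorubicin, 8 to 26 for the average effect of ATRA and 152 to 548 for additivity. Under normexp based on detection p-values, 13 of the 32 called member changes moved by over 1.5 times, all 13 to smaller sizes, and they were those of CBR3 (6), TOP1 (4) and 1 each of CBR1, AKR1C2 and ABCC1. CBR3 then rose with doxorubicin by 0.70 on average, less than AKR1B1 (1.075). Of 146 called changes of list genes 70 moved that far, 68 of them to smaller sizes. With doxorubicin the named ones, besides AKR1B10, were POR 0.32, ABCC5 0.31, RMI1 0.26, TOP3B 0.15, ABCC3 0.07, TOP1MT -0.09 and PLK1 -0.13, and with entinostat HMOX1 0.23, ABCC5 0.21, TOP1MT -0.05, SLC7A11 -0.12 and GCLM -0.28. The cause of these shifts was not tested. TOP1, AKR1C2, CBR1 and ABCC1 had low mean signals of 90.08, 43.12, 109.1 and 14.49, so their sizes are less certain. CBR3, with 6 of the 13 shifts, had a mean signal of 311.3 and was detected on 16 arrays.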
